A study of Arabidopsis thaliana with 6 samples.

Results

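The genes described here are 8 members of the HSP70 chaperone family of Arabidopsis thaliana, 6 that act in the cytosol (HSC70-1, HSC70-2, HSC70-3, HSP70, HSP70B and HSP70T-2) and 2 that act in the chloroplast stroma (cpHSC70-1 and cpHSC70-2). They were chosen by name and locus, with earlier results of these data known. All 8 were found among the 33977 gene IDs of each count table and passed the filter that left 21005 genes to test. The libraries came from messenger RNA of whole Col-0 plants grown for 10 days at 22 °C with 16 h of light and 8 h of dark, on half-strength MS medium alone (control, n = 3) or on that medium with 1.5 mM cesium chloride (CsCl, n = 3). MS medium is a standard mineral medium for plants, and cesium shares its group of the periodic table with potassium. Both groups are wild type, and the plants grew on their medium from seed, so the samples compare a continuous exposure and not a short heat or metal shock.

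HSP70 proteins are ATP-driven chaperones that bind short hydrophobic stretches of unfolded proteins and release them for folding, import or degradation. J proteins bring clients and speed ATP hydrolysis, and nucleotide exchange factors such as FES1 and BAG proteins, or GrpE-type factors in the chloroplast, let ADP and the client go. In plants the HSC70 genes are known as largely constitutive, HSP70 and HSP70B as strongly heat-induced, and the stromal pair as part of the machinery that pulls precursor proteins into the chloroplast.

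With CsCl, HSC70-2 and HSP70B were higher, each by a little under 1.6-fold, and both are among the least abundant of the 8 genes. HSC70-2 had a fold change of 1.56 (95% interval 1.38 to 1.76) and HSP70B of 1.58 (95% interval 1.31 to 1.91). The most abundant member, HSC70-1, had a fold change of 0.995 (95% interval 0.886 to 1.12), and the chloroplast genes cpHSC70-1 and cpHSC70-2 of 1.01 (0.924 to 1.10) and 0.979 (0.895 to 1.07). In all, 2 of the 8 members were higher and 0 lower by edgeR's quasi-likelihood test at a Benjamini-Hochberg adjusted p under 0.05, against 0.843% of all tested genes higher and 1.32% lower. The members were chosen with earlier results known, so these shares are given for reference and no enrichment was tested. At an unadjusted p under 0.05, which 14.4% of all tested genes reached, no member was lower and 3 were higher. With DESeq2 at the adjusted threshold 0 members were lower and 3 higher, beside 224 genes higher and 412 lower of 22862 tested. With limma-voom the member counts were also 0 and 3, beside 167 genes higher and 270 lower of 21005 tested. The median log2 fold change of the 8 was 0.071, beside 0.0052 over all genes tested. The labels do not state that replicates were independent cultures, so p-values cover only sample-to-sample spread, which could be technical.

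The last coding bases before the stop codon are printed here because they separate 5 of the 6 cytosolic members from HSP70T-2 and the chloroplast genes. They were read 5′ to 3′ on the coding strand of the RefSeq TAIR10.1 genome, and the final 12 of 48 bases are in capitals.
HSC70-1: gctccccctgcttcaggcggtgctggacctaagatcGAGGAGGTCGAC
HSC70-2: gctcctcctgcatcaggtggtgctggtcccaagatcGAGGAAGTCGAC
HSC70-3: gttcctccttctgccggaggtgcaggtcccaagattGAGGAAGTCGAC
HSP70: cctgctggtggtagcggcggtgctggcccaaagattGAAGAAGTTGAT
HSP70B: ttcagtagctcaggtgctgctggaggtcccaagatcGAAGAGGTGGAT
HSP70T-2: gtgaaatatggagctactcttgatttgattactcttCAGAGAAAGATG
cpHSC70-1: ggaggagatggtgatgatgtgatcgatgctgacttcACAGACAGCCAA
cpHSC70-2: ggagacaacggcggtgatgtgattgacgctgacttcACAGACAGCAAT
In the first 5 genes the capitals encode the EEVD tail, which in cytosolic HSP70 proteins is the docking site for co-chaperones with TPR domains such as HOP and CHIP. HSP70T-2, a shortened family member with 563 codons before its stop against 646 to 653 in the other cytosolic members, lacks that tail, and so do the chloroplast genes, which share the tail ACAGACAGC before their last codon. The genes that were higher with CsCl both carry the EEVD codons, as do HSC70-1, HSC70-3 and HSP70, which were not past the test.

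HSC70-2 (AT5G02490, chromosome 5, 550035 to 552827, minus strand; TAIR10.1 here and for all positions given) and HSC70-1 (AT5G02500, chromosome 5, 553745 to 556623, minus strand) stand next to each other, with 917 bases and no annotated gene between them. Their coding sequences were 87.2% identical over 1956 aligned bases. The stretch around their longest identical coding run, coding bases 460 to 530 of each gene on chromosome 5, is shown because it marks how far reads of the neighbours can be told apart. Capitals mark the 5 bases that differ.
HSC70-1: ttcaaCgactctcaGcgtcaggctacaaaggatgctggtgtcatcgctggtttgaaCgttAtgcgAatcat
HSC70-2: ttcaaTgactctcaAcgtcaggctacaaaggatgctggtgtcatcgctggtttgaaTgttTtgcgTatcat
The identical run is 41 bases long, and no window of 50 bases in the annotated transcript of either gene occurs exactly in a transcript of another gene. The same held for windows of 50 bases in 7 of the 8 members. The exception was HSC70-3, with 7 of 3173 such windows shared with HSP70-18 (AT1G56410), and no member shared a window of 100 bases. Neither read length nor the handling of multi-mapped reads is stated in the labels.

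Levels differed far more between members than between treatments. Per kilobase of annotated exon, HSC70-1 stood at 851 ± 89.3 CPM (counts divided by TMM-scaled library size; mean ± SD, n = 3) in controls and 846 ± 45.6 with CsCl. The stromal genes followed at 163 ± 7.35 CPM per kb for cpHSC70-1 and 156 ± 2.83 for cpHSC70-2 in controls, then HSP70 at 78.0 ± 13.8 and HSC70-3 at 75.5 ± 5.10. HSC70-2 lay at 7.79 ± 0.542 CPM per kb in controls, HSP70T-2 at 4.36 ± 0.632 and HSP70B at 1.82 ± 0.153. Over all 6 libraries the ranges of the stromal genes overlapped each other (157 to 171 and 147 to 164 CPM per kb), as did those of HSC70-3 and HSP70 (69.9 to 96.1 and 63.2 to 97.2). The ranges of all other neighbours in this order of the 8 genes were separate. HSC70-1 alone made up between 60.4% and 63.2% of the summed CPM of the 8 genes in every library.

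**Figure D1:**
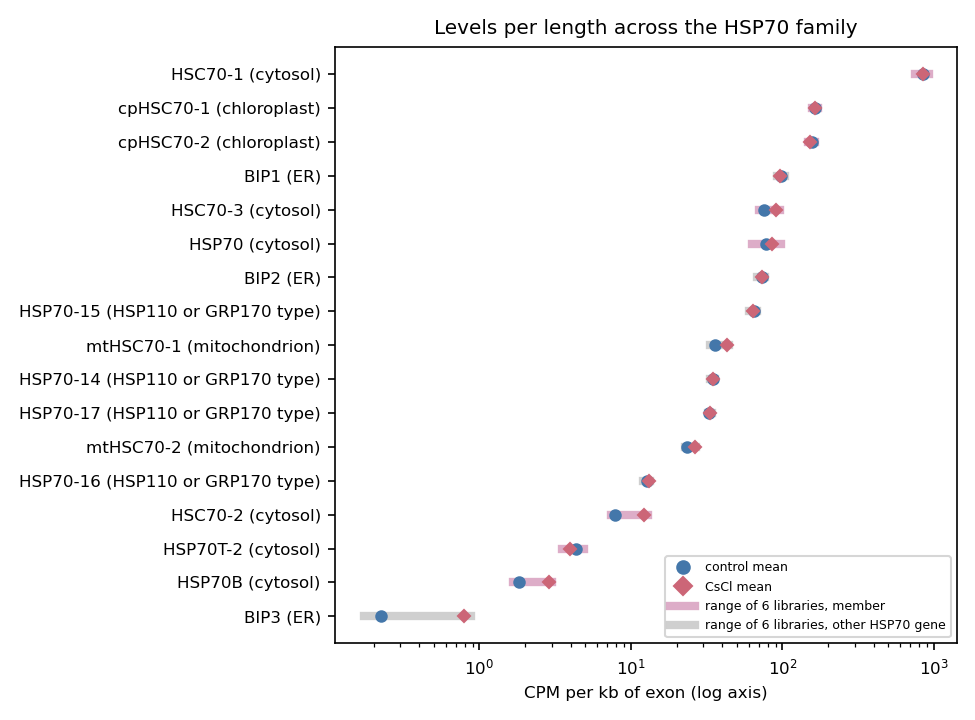
Level of each HSP70 family gene in CPM per kb of annotated exon, on a log axis, with the mean of 3 control libraries (circle), the mean of 3 CsCl libraries (diamond) and the range over all 6 libraries (bar; purple for the 8 members, grey for other family genes). HSC70-1 is the highest, HSC70-2, HSP70T-2 and HSP70B are the lowest members, and HSP70-18, which was near 0, is not drawn.

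HSC70-1, the main housekeeping cytosolic HSP70, had 1919, 2239.5 and 2361 CPM in control replicates 1, 2 and 3 and 2269, 2180.4 and 2038 CPM with CsCl. The CsCl values all lay inside the control range. Its log2 fold change was -0.0072 ± 0.078 (SE; edgeR adjusted p = 0.978).

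HSC70-2, the less abundant neighbour of HSC70-1, had 18.2, 19.0 and 20.8 CPM in controls and 32.4, 27.6 and 30.5 CPM with CsCl. Every CsCl library was above every control library, a separation that 10.0% of all tested genes showed in this direction. The log2 fold change was 0.64 ± 0.082 (SE; edgeR adjusted p = 0.000878). HSC70-2 kept its call in all 14 alternatives run, with log2 fold changes from 0.58 to 0.70. As a share of HSC70-1 counts, HSC70-2 stood at 0.952%, 0.853% and 0.886% in controls, against 1.43%, 1.27% and 1.50% under CsCl. The log2 ratio of HSC70-2 to HSC70-1 was higher by 0.64 with CsCl (exact permutation test over the 6 libraries, two-sided, p = 0.1, the smallest p that 3 against 3 allows; 0.2 adjusted over the 2 ratios tested). This difference restates the log2 fold change of HSC70-2, since that of HSC70-1 was close to 0.

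HSC70-3 (AT3G09440, chromosome 3, 2902355 to 2905947, minus strand), another constitutive cytosolic gene, had 225, 247 and 257 CPM in controls and 310, 294 and 276 CPM with CsCl. The groups did not overlap, as in 10.0% of all tested genes in this direction. The nearest values were 257 in control replicate 3 and 276 in CsCl replicate 3. Its log2 fold change of 0.27 ± 0.067 (SE; 95% interval 0.13 to 0.41) narrowly missed the threshold (edgeR adjusted p = 0.0533). It passed under 6 of the 14 alternatives, among them DESeq2 (adjusted p = 0.00647) and limma-voom (0.0458), and its adjusted p ran from 0.00647 to 0.230 over all of them. AT3G09430, an overlapping gene on the other strand, shares 863 bases with HSC70-3 but stood at only 0.457 CPM in controls and 0.876 with CsCl. Whether counting used strand is not stated in the labels.

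HSP70 (AT3G12580, chromosome 3, 3991117 to 3993886, minus strand), the abundant heat-induced cytosolic gene, had 159, 202 and 228 CPM in controls and 245, 207 and 194 CPM with CsCl. The groups overlapped, and this gene had the widest spread among controls, 1.43-fold from lowest to highest. Its log2 fold change was 0.13 ± 0.11 (SE; 95% interval -0.11 to 0.37; edgeR adjusted p = 0.641). Without control replicate 1, the lowest library, the value was -0.0015.

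HSP70B (AT1G16030, chromosome 1, 5501966 to 5504535, minus strand), a heat-induced cytosolic gene without introns, had 5.06, 4.27 and 4.73 CPM in controls and 7.47, 7.05 and 7.69 CPM with CsCl. These levels rest on 142 to 348 counts per library. All 3 CsCl libraries were above all 3 controls, as in 10.0% of all tested genes. The log2 fold change was 0.66 ± 0.13 (SE) with an edgeR adjusted p of 0.0123. The call was lost without control replicate 2 (adjusted p = 0.0531) or without CsCl replicate 3 (adjusted p = 0.0806), where the log2 fold changes were 0.59 and 0.63; over all 14 alternatives the adjusted p ran from 0.00279 to 0.0806.

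HSP70T-2 (AT2G32120, chromosome 2, 13651442 to 13653945, minus strand) had 7.98, 10.7 and 9.93 CPM in controls and 8.37, 7.62 and 9.83 CPM with CsCl. The groups overlapped. The log2 fold change was -0.14 ± 0.13 (SE; 95% interval -0.42 to 0.14; edgeR adjusted p = 0.680).

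**Figure D2:**
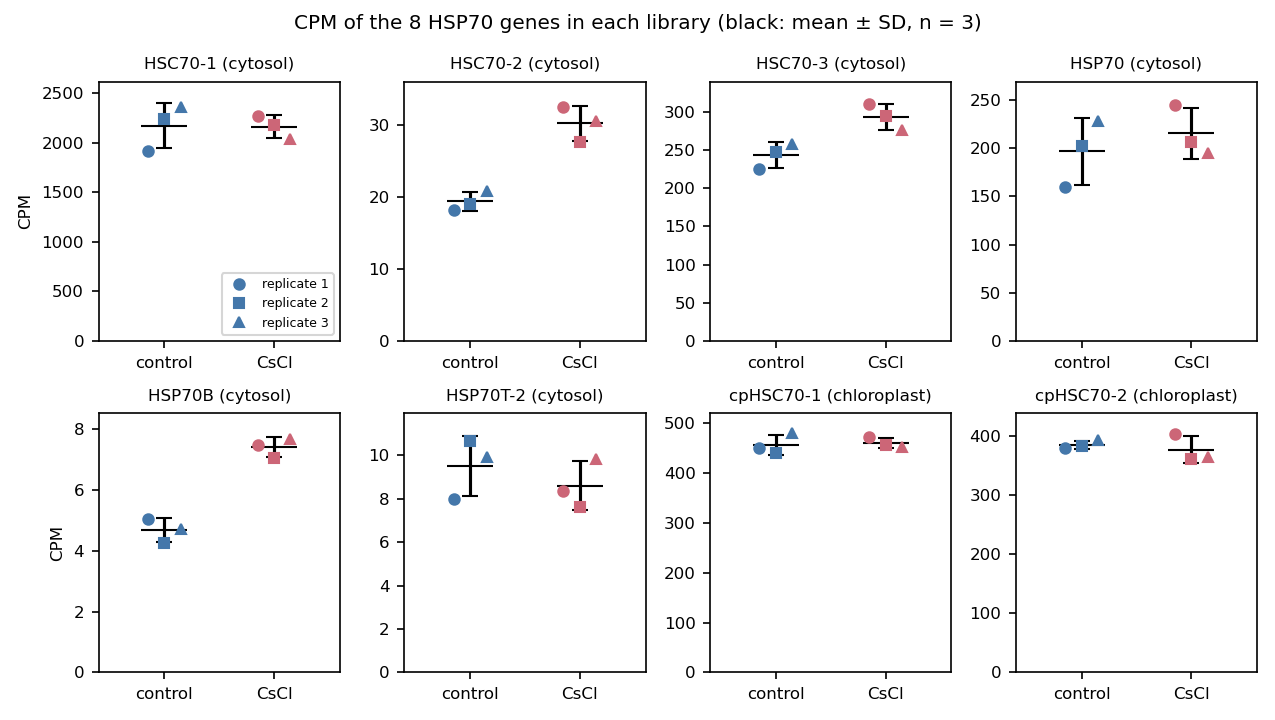
CPM of each of the 8 HSP70 genes in the 3 control (blue) and 3 CsCl (red) libraries, each panel with its own axis from 0; black marks are mean ± SD (n = 3). The groups are separate, with CsCl higher, for HSC70-2, HSC70-3 and HSP70B, and overlap for the other 5 genes. Of all tested genes, 10.0% showed such a separation in this direction.

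The chloroplast members had fold changes close to 1. cpHSC70-1 (AT4G24280, chromosome 4, 12589810 to 12593800, plus strand), which is known to be needed for normal leaf development and heat tolerance of germinating seeds, had 450, 440 and 480 CPM in controls and 472, 457 and 453 CPM with CsCl. cpHSC70-2 (AT5G49910, chromosome 5, 20303334 to 20306469, plus strand), its stromal partner, had 379.6, 383 and 393 CPM in controls and 404, 362 and 365 CPM with CsCl. In both genes the groups overlapped, with log2 fold changes of 0.010 ± 0.058 (edgeR adjusted p = 0.957) and -0.030 ± 0.061 (edgeR adjusted p = 0.872; SE). The log2 ratio of cpHSC70-1 to cpHSC70-2 was 0.25 ± 0.044 in controls and 0.29 ± 0.058 with CsCl (SD, n = 3 each; exact permutation test, two-sided, p = 0.4). Both genes have 7 introns, against 0 to 2 in the cytosolic members. Summed over both, the chloroplast genes held 823 to 873 CPM in controls and 818 to 876 with CsCl, and the 6 cytosolic genes 2335 to 2882 and 2556 to 2872. The sums of both compartments overlapped between the groups, and HSC70-2 and HSP70B together made up 0.657% to 0.735% of the 8-gene total in controls and 0.979% to 1.13% with CsCl.

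HSC70-1, HSC70-3 and HSP70 ranked the libraries alike within each group. In controls all 3 genes were lowest in replicate 1 and highest in replicate 3, and with CsCl all 3 were highest in replicate 1 and lowest in replicate 3. This pattern was noticed after the values were seen; 4.19% of all tested genes ranked the libraries in the same way in both groups. The same order was seen in 3 of 12 tested heat shock factors and regulators (HSFA2, HSFA3 and HSFB2B), in 2 of 9 cytosolic J proteins (ATJ2 and AT2G20560), in 2 of 9 nucleotide exchange factors (BAG1 and BAG3) and in 2 of 10 leaf markers (RBCS3B and RCA). It was also seen in HSP70-15, 1 of the 9 other tested HSP70 family genes, and in HSP93-V, 1 of 9 genes of chloroplast import, and in none of the 9 TPR adaptors and partners, 7 chloroplast J proteins and 10 root markers, so it was not limited to chaperone genes. HSC70-2 followed the same order in controls but not with CsCl, and HSP70B in neither group.

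**Figure D3:**
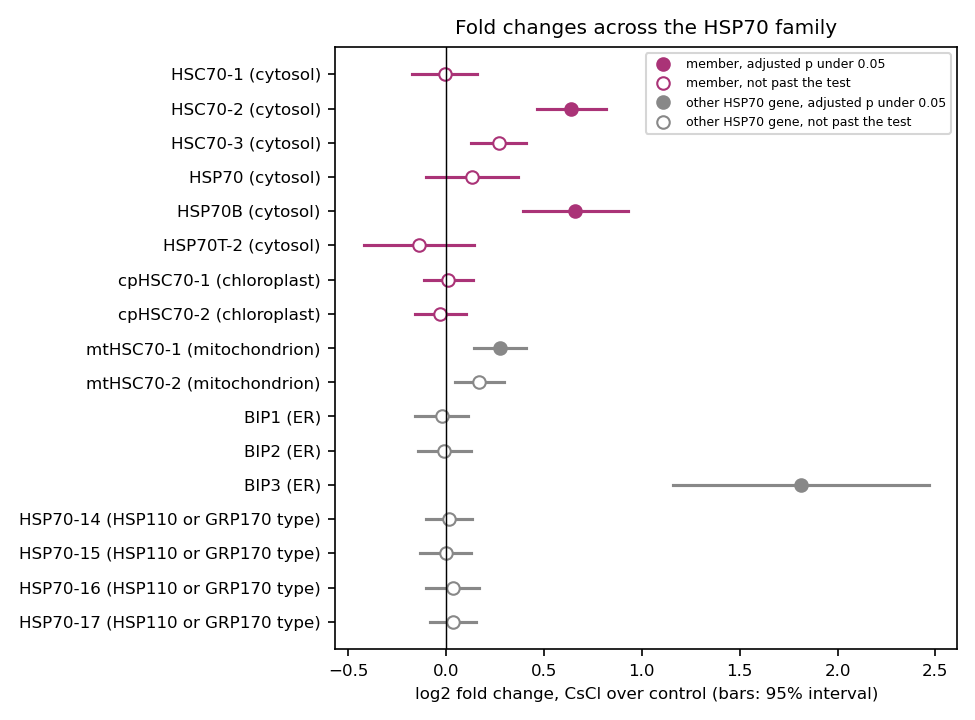
Log2 fold change (CsCl over control, edgeR) with its 95% interval for the 17 tested HSP70 family genes; filled points have an adjusted p under 0.05. Of the 8 members (purple), HSC70-2 and HSP70B are filled and the intervals of HSC70-1, HSP70, HSP70T-2, cpHSC70-1 and cpHSC70-2 cross 0.

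The other 10 HSP70 family genes are those of mitochondria and the endoplasmic reticulum (ER), the HSP110 or GRP170-type relatives and the cytosolic HSP70-18. Of these 9 were tested, 2 were higher, 0 lower and 7 not past the test, with a median of 0.034 on the log2 scale. Over all tested genes 0.843% were higher and 1.32% lower. The mitochondrial mtHSC70-1 (AT4G37910) rose from 97.7 ± 6.37 to 118 ± 3.71 CPM (edgeR adjusted p = 0.0320 at a log2 fold change of 0.28), a call held without control replicate 1 and lost without any other single library. Its partner mtHSC70-2 (AT5G09590) stood at 60.4 ± 2.35 and 67.8 ± 2.17 CPM (edgeR adjusted p = 0.193). The stress-induced ER gene BIP3 (AT1G09080) rose from 0.479 ± 0.118 to 1.69 ± 0.192 CPM on 12 to 78 counts per library. Its log2 fold change of 1.81 (edgeR adjusted p = 0.00586) was the largest of the tested family genes. The call was held in all 6 fits that left out a library. The constitutive ER genes were not past the test: BIP1 (AT5G28540) stood at 279 ± 13.4 and 275 ± 16.2 CPM and BIP2 (AT5G42020) at 200 ± 13.8 and 199 ± 6.25 CPM. The HSP110 and GRP170-type genes, some of which are exchange factors for other HSP70 proteins, had log2 fold changes of 0.015 for HSP70-14 (AT1G79930), -0.0030 for HSP70-15 (AT1G79920), 0.034 for HSP70-16 (AT1G11660) and 0.035 for HSP70-17 (AT4G16660). HSP70-18 (AT1G56410), a cytosolic relative whose coding sequence was 87.7% identical to that of HSC70-2, had 0 to 2 counts per library and was not tested.

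In the partner lists some genes were past the test, in both directions, beside 0.843% of all tested genes higher and 1.32% lower. Of 9 tested nucleotide exchange factors 1 was higher and 1 lower, with a median of -0.11 on the log2 scale. FES1A (AT3G09350), the cytosolic exchange factor tied to heat tolerance, rose from 9.47 ± 0.449 to 13.4 ± 1.20 CPM (edgeR adjusted p = 0.0158 at a log2 fold change of 0.50), a call lost without control replicate 3, CsCl replicate 1 or CsCl replicate 2. BAG3 (AT5G07220) fell from 101 ± 4.72 to 83.0 ± 5.14 CPM (edgeR adjusted p = 0.0351 at a log2 fold change of -0.28), a call lost without control replicates 2 or 3 or CsCl replicates 2 or 3 and with library totals as the only scaling. The most abundant gene of that list, BAG1 (AT5G52060), stood at 141 ± 9.67 and 125 ± 3.50 CPM (edgeR adjusted p = 0.198).

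Of 9 tested cytosolic J proteins none was past the edgeR test, 1 had an unadjusted p under 0.05 and the median was -0.12. ATJ3 (AT3G44110), the most abundant of them, stood at 241 ± 8.61 and 232 ± 2.20 CPM in control and CsCl samples (edgeR adjusted p = 0.721). Of 7 chloroplast J proteins 1 was higher and 1 lower, with a median of -0.0016. ATJ11 (AT4G36040), a small chloroplast J protein, rose from 120 ± 10.3 to 151 ± 11.1 CPM (edgeR adjusted p = 0.0279 at a log2 fold change of 0.34), a call lost without control replicates 1 or 2 or CsCl replicates 2 or 3. DJA6 (AT2G22360) fell from 46.8 ± 2.46 to 38.9 ± 0.490 CPM (edgeR adjusted p = 0.0390 at a log2 fold change of -0.27), a call held without control replicate 1 and lost without any other single library, and also lost with library totals as the only scaling. ATJ8 (AT1G80920), the most abundant, stood at 140 ± 7.67 and 151 ± 1.25 CPM (edgeR adjusted p = 0.423).

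No gene was past the edgeR test among 9 TPR adaptors and partners, 9 genes of chloroplast import or 12 tested heat shock factors and regulators, where 1, 1 and 2 genes had an unadjusted p under 0.05. HIP1 (AT4G22670), an HSP70-interacting protein and the most abundant of its list, stood at 118.5 ± 5.84 and 113 ± 4.02 CPM. The import motor gene HSP93-V (AT5G50920), whose protein works beside the stromal HSP70s, stood at 1303 ± 40.6 and 1247 ± 47.9 CPM. HSFB1 (AT4G36990), a repressor-type heat shock factor and the most abundant of its list, stood at 49.8 ± 1.61 and 43.9 ± 0.603 CPM (edgeR adjusted p = 0.155). HSFA2 (AT2G26150) had the largest log2 fold change of that list, 0.79 ± 0.22 (SE; edgeR adjusted p = 0.0814). It stood at 1.55 ± 0.286 and 2.71 ± 0.231 CPM on 44 to 114 counts per library. Its CsCl libraries were all above its control libraries, as in 10.0% of all tested genes, but it was not past the test. Of the 12 tested genes of that list, 3 had log2 fold changes above 0 and 9 below 0. The median log2 fold changes were 0.018 for the adaptors, 0.033 for chloroplast import and -0.14 for heat shock factors.

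**Figure D4:**
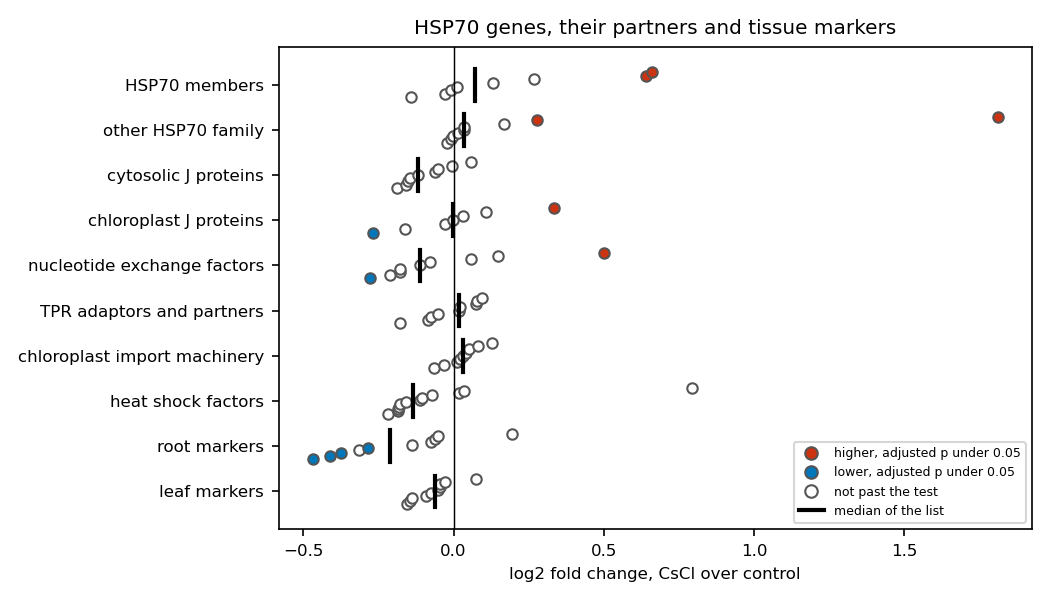
Log2 fold change (CsCl over control) of each tested gene in the HSP70 lists, the partner lists and the root and leaf markers; filled points have an edgeR adjusted p under 0.05 and black bars are medians. HSC70-2 and HSP70B are the 2 filled points among the 8 members, and 4 root markers are filled on the lower side. Of all tested genes, 0.843% were higher and 1.32% lower.

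Genes with the most similar pattern were taken by the smallest root mean square difference of centred log2 CPM over the 6 libraries, among 15169 genes with a mean of at least 5 CPM. For HSC70-2 they were the ribosomal protein L41 family gene AT3G56020 (difference 0.098), the elongation factor family gene AT3G12915 (0.099) and CCS (AT1G12520, 0.10), the copper chaperone for superoxide dismutase. For HSP70B they were the subtilisin-like protease gene ATSBT5.2 (AT1G20160, 0.081), again AT3G12915 (0.089) and GMI1 (AT5G24280, 0.090), named for its induction by gamma irradiation. AT3G12915 went from 7.41 ± 0.244 to 10.5 ± 0.406 CPM and CCS from 20.7 ± 0.132 to 31.6 ± 1.46 CPM. The genes were picked for their likeness over the same 6 libraries, so a rise with CsCl follows from the choice. AT3G12915 was past the edgeR test (adjusted p = 0.0154), a call lost without control replicate 2 or without any single CsCl library.

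**Figure D5:**
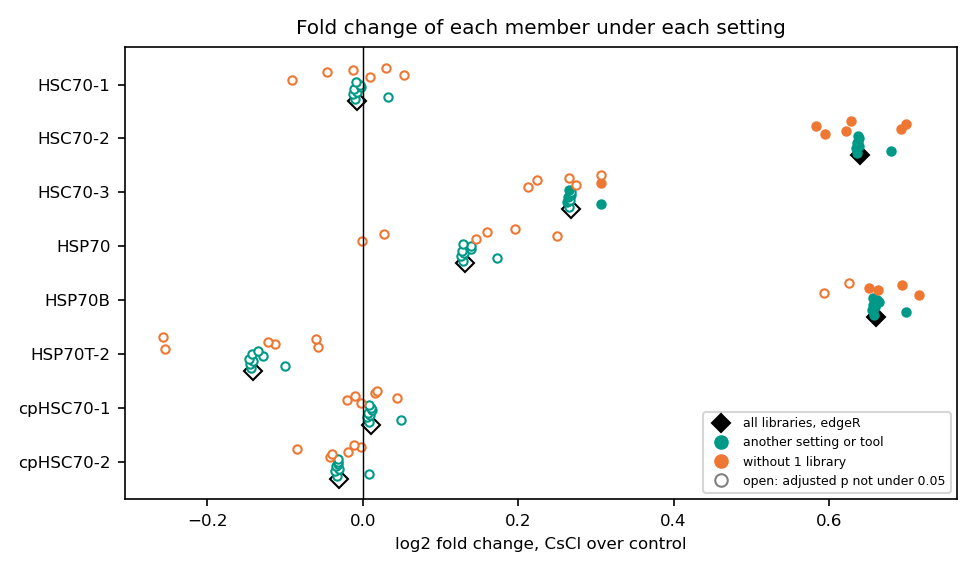
Log2 fold change of each of the 8 members with all libraries (black diamonds), under 8 other settings or tools (green) and without each of the 6 libraries in turn (orange); filled points have an adjusted p under 0.05. All points of HSC70-2 are filled, HSP70B has 2 open points, HSC70-3 is mixed, and the other 5 members are open throughout.

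The libraries held 32075069 to 44108369 counts, with CsCl replicate 3 the deepest. Markers of root and leaf were both present, as the whole-plant label says, and none of the 20 was at 0 in all libraries. Of 10 root markers 4 were lower and 0 higher, beside 1.32% of all tested genes lower and 0.843% higher. Their median log2 difference was -0.21, and their summed level was 5910 to 6237 CPM in controls and 4548 to 5080 CPM with CsCl. PYK10 (AT3G09260), which encodes a beta-glucosidase of root ER bodies, was lower at a log2 difference of -0.38 (edgeR adjusted p = 0.00840), a call lost without CsCl replicate 2, and the endodermal CASP2 (AT3G11550) was lower at -0.47 (edgeR adjusted p = 0.00537). PYK10 alone had a mean of 5788 CPM in controls and 4462 with CsCl, so the summed root marker level was mostly this gene. The 6 root markers not past the test had log2 differences from -0.31 (COBL9) to 0.20 (SHR). SHR was the only 1 of the 10 above 0. Of 10 leaf markers none was past the edgeR test and 1 had an unadjusted p under 0.05, with a median of -0.063 and summed levels of 60453 to 67349 and 58186 to 61149 CPM. RCA (AT2G39730), the Rubisco activase gene and the most abundant leaf marker, stood at 15153 ± 1571 and 14631 ± 786 CPM. In bulk samples, a change in the share of a tissue and a change in RNA per cell cannot be told apart; the part of tissue makeup in the higher HSC70-2 and HSP70B levels was not tested.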

How the data were processed

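The authors deposited raw counts per gene, 1 table per sample and no normalization; per the labels' protocols the library kit was stranded and selected mRNA. TAIR10, STAR, featureCounts, FastQC and edgeR are listed, with no version, in the submitters' processing notes. Even numbers made up 65.5% to 73.4% of the counts between 1 and 50, so both mates of a pair may have been counted. The test was edgeR 4.0.16 under R 4.3.3 (filterByExpr, TMM factors of 0.961 to 1.03, quasi-likelihood test, group as the only term, Benjamini-Hochberg adjustment over 21005 genes, threshold 0.05), checked on simulated counts. The SE was taken as the absolute coefficient over the root of F. Alternatives used DESeq2 1.42.0, limma-voom 3.58.1, other scaling and filters, halved counts, the replicate number as a block and 6 fits that each left out a library. Loci were matched by ID to RefSeq TAIR10.1 for coordinates, exon lengths and sequence (Biopython 1.88). Replicates differed by more than sampling noise (chi-square per gene 6.24 to 12.7), so none was a copy. All 8 members were named in any case. In each other list the most abundant tested gene and up to 2 genes per direction past the test were named, with all other HSP70 family genes, and 3 genes of similar pattern for each member past the test. The values of HSFA2, which was not past the test, were added after they were seen. The members and lists were chosen with earlier results of these data known.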

Additional observations from a re-analysis of the deposited data

How the results depend on the processing

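Over the 14 alternatives HSC70-2 kept its direction and call, HSP70B its direction in all and its call in 12, and HSP70T-2 stayed lower and not past the test. HSC70-3 had the same direction in all 14 and passed with library totals only (log2 fold change 0.31), no filter (0.26), DESeq2 (0.26), limma-voom (0.27), halved counts (0.27) and without control replicate 3; the cause was not tested. With 1 library left out, members higher numbered 1 to 3, and log2 fold changes ran from -0.091 to 0.053 for HSC70-1, 0.21 to 0.31 for HSC70-3, -0.0015 to 0.25 for HSP70, 0.59 to 0.72 for HSP70B and -0.021 to 0.044 for cpHSC70-1. Library totals only turned the sign of values near 0: HSC70-1 (0.033), cpHSC70-2 (0.0084), BIP1 (0.017), BIP2 (0.029) and HSP70-15 (0.036). Leaving out a library did so too, with ranges of -0.073 to 0.014 for BIP1, -0.071 to 0.018 for BIP2, -0.020 to 0.030 for HSP70-14, -0.055 to 0.027 for HSP70-15, -0.010 to 0.065 for HSP70-16 and -0.11 to 0.033 for RCA. Both ratios kept their sign with a prior count of 0.5 and without each library. Over all genes, 177 were higher and 277 lower; library totals only gave 198 and 180 (52.4% of calls higher in place of 39.0%), no filter 301 and 518, and leaving out a library 89 to 231 higher and 90 to 330 lower, the fewest without CsCl replicates 3 and 2. A replicate block gave 146 genes higher and 210 lower, with 2 members higher; mtHSC70-1, DJA6, BAG3 and PYK10 lost their calls. The numbers are not taken as pairs: deviations of same-numbered samples correlated at -0.077, 0.039 and -0.0096. If both mates were counted, low counts such as those of BIP3 rest on fewer fragments than their size implies.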

Other observations

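The 250 bases before the annotated start of each of the 8 genes were searched for the core of the heat shock element, the binding sequence of heat shock factors, as TTCNNGAA and GAANNTTC, each of which is its own reverse complement and so covers both strands; the forms can overlap. None of the 8 windows held either of them, among them HSC70-2 and HSP70B. Of 27438 windows of protein-coding genes of the same length, 7.68% held TTCNNGAA and 9.55% held GAANNTTC. That says only that these letters are not in these windows, since imperfect elements and elements inside the annotated leader were not searched.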
